A study of Mus musculus with 8 samples.

Results

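Claudins are the membrane proteins that form the strands of tight junctions, and the 10 genes described here are Cldn1, Cldn2, Cldn3, Cldn4, Cldn5, Cldn7, Cldn8, Cldn10, Cldn18 and Cldn23. They were taken by symbol from a count table of 54532 genes, which holds 35 genes with a claudin symbol. Of the 10, 9 passed the filter on low counts and were tested, and Cldn10 did not pass. Their RNA was measured by mRNA sequencing of the stomach corpus, the acid-secreting body of the stomach, in 4 control and 4 mutant mice of a mixed C57BL/6 X CD1 background that received no treatment. All 8 mice carried 1 copy of the Six2-Cre transgene, a recombinase driven from the Six2 gene. Controls were PKAcaR wt/wt and mutants PKAcaR fl/wt, that is, with 1 floxed copy of an altered gene for the catalytic subunit of protein kinase A (PKA), known from other work to make the enzyme active without cyclic AMP after recombination. The sources used here give neither ages nor sexes.

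Tight junctions seal the space between neighbouring epithelial or endothelial cells. Claudins of adjacent cells pair across that space, and the mixture of claudins sets which ions and how much water may pass: some members tighten the seal and others form pores through it. The stomach must hold acid in its lumen, and a stomach form of claudin 18 is the main claudin of its surface and glands. The question the comparison addresses is how the altered PKA gene changes gene expression in the corpus.

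Levels are given as CPM, read counts scaled to library size, or, where genes are compared with one another, as FPKM, which is also scaled to transcript length. Library totals lay between 18184281 and 23814720 reads, and 3 reads in a library came to 0.18 to 0.198 CPM in controls and 0.1 to 0.129 in mutants. Prkaca, the PKA gene itself, measured 77.12 to 86.02 CPM in controls and 36.85 to 40.73 in mutants. The library of mutant 2 stood apart: it correlated with the other mutants at r of 0.83 to 0.875, while all other pairs within a group lay between 0.969 and 0.978. Its summed pan-epithelial markers (12 genes) were 2308 CPM against 4590 to 6885 in the other 7 libraries. Epcam, 1 of the 12, was instead highest in mutant 2, at 478 CPM against 163 to 401.6 elsewhere. Endothelial markers of mutant 2 summed to 1644 CPM against 305.5 to 622.6, and its T, B and myeloid markers to 1154 against 31.15 to 120.9. S100a9 alone gave 408.5 CPM of the 1154, so that sum does not describe T, B and myeloid cells equally. Parietal markers, which define the corpus, summed to 17010 to 21150 CPM in controls and 377.8 to 3209 in mutants. Chief cell markers summed to 298400 to 534000 CPM in controls and 996.3 to 41620 in mutants, and mucous neck markers to 2389 to 6206 and 9395 to 26840. Squamous markers of the forestomach summed to 307 CPM in control 3 and 837.3 in mutant 3, against 1.675 to 3.728 in the other 6 libraries. In controls against mutants, pit cell markers summed to 39580 to 64410 and 4330 to 33620 CPM, smooth muscle markers to 3013 to 3951 and 292.4 to 896.8, mesothelial markers to 1484 to 2915 and 371.3 to 2199, and intestinal markers to 570.7 to 621.9 and 320.7 to 1417, with Cdx2 at 0 reads throughout. The mesothelial list includes Krt19, a keratin gene that simple epithelium also expresses, so its sum is not of mesothelium alone. Members of the intestinal list went both ways. Of its 6 tested genes, 1 had all mutants above all controls and 2 had all mutants below them. Over all tested genes these shares were 14.2% and 16.1%. The part these differences in marker sums play in the claudin values was not tested. In whole tissue, fewer cells of a type and less RNA per cell cannot be told apart.

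Of the 9 claudins tested, 4 rose in mutants (Cldn2, Cldn4, Cldn7 and Cldn23), 1 fell (Cldn8) and 4 were not called (Cldn1, Cldn3, Cldn5 and Cldn18) at an adjusted p below 0.05 in edgeR's quasi-likelihood test. Across all 15862 genes tested, 20.2% were called, 9.39% higher and 10.8% lower. The median log2 fold change of the 9 claudins was 1.48, the value of Cldn3, which was not called, beside 0.07 over all genes. Cldn2 and Cldn4, with few reads in controls, passed the filter through the mutants, where they are high. The members were also chosen with earlier results of these data known. The count of risers and the median therefore describe these members only. Values of the 4 mutants lay wholly above those of the 4 controls for 4 claudins and wholly below for 1, the same 5 genes. Such a separation was seen in 30.3% of all tested genes, with mutants higher in 14.2% and lower in 16.1%. Without mutant 2 all 10 passed the filter, 4 rose and 3 fell (Cldn5, Cldn8 and Cldn10), with a median of 0.94, while 33.5% of 16124 genes were called, 15.2% higher and 18.3% lower. Cldn10 passed that filter only through its control reads, which favoured a lower call. Other settings called 6 of 8 claudins with DESeq2 (30.7% of all genes), 6 of 9 with limma-voom (35.7%), 7 with column totals as library sizes (64.1%) and 4 with pan-epithelial genes as the scale (6.66%). Leaving out control 3 and mutant 3 gave 3 of 9 (8.81%), using no low-count filter 4 of 10 (8.9%), and a block for replicate number 3 of 9 (11.5%). The plot of CPM by library shows the 10 genes side by side.

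**Figure D1:**
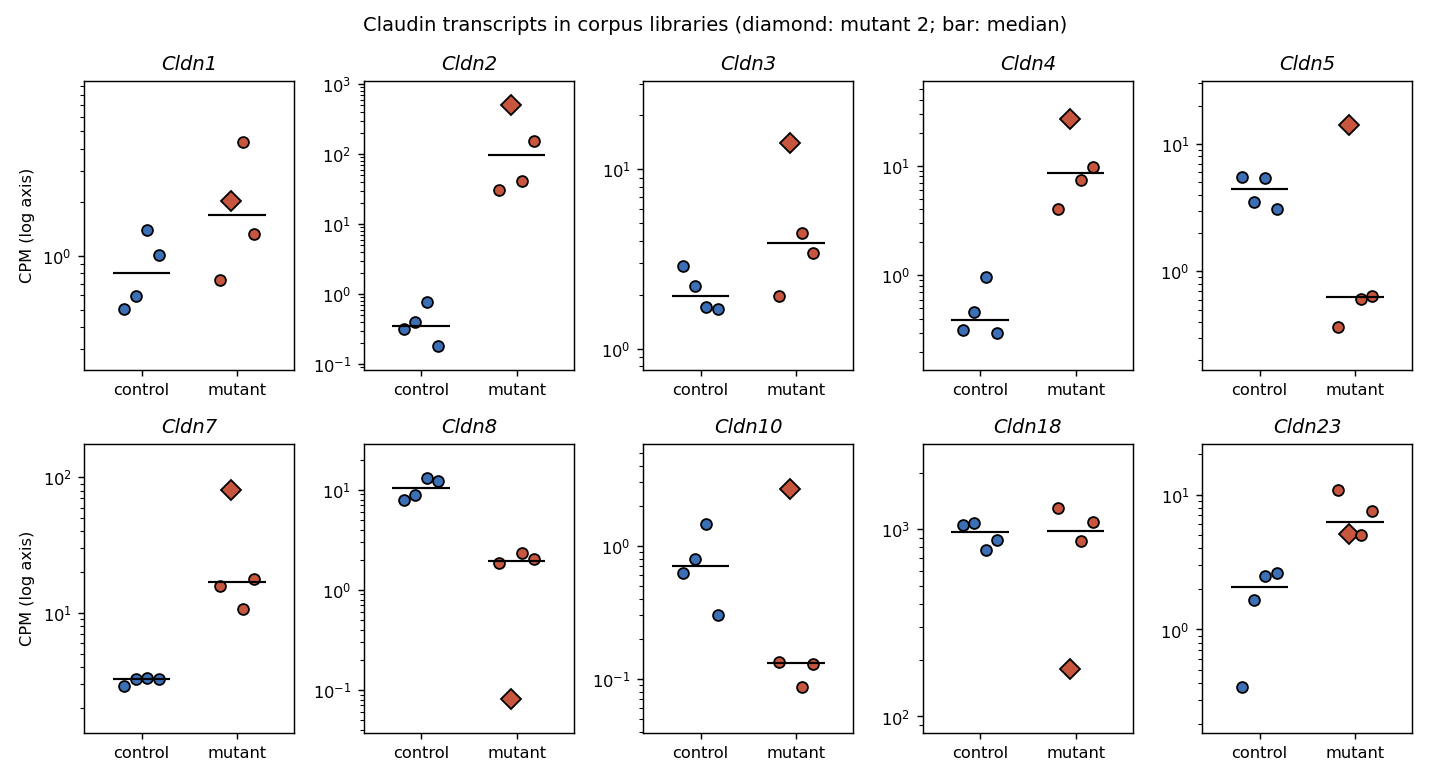
CPM of each claudin (log axis) in 4 control (blue) and 4 mutant (red) libraries, with a bar at each group's median and a diamond for mutant 2. All mutants lie above all controls for Cldn2, Cldn4, Cldn7 and Cldn23 and below them for Cldn8, and mutant 2 lies far above the other mutants for Cldn5 (14.19 CPM) and Cldn10 (2.658 CPM).

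Promoter sequence is shown for 3 of the 4 genes that rose, since these are the members on which the comparison turns. RefSeq windows on GRCm38.p6 were found for 8 of the 10 claudins, 11 windows in all, and none was matched for Cldn8 or Cldn23. In the 250 bases before each start, both strands were searched for the cyclic AMP response element palindrome TGACGTCA, its core TGACG, the AP-1 site TGANTCA and the TATA box TATAAA; every palindrome also counts as a TGACG match. The palindrome was in 1 of the 11 claudin windows, the second start of Cldn7, and in 1.55% of all 32851 windows. The first line gives the 250 bases before the Cldn2 start at chrX:139800558-139800807, plus strand, with the TATA box at position -35 in capitals. The next gives those before Cldn4 at chr5:134946935-134947184, minus strand, with AP-1 matches at -240 and -158 in capitals. The last is a 29-base stretch at chr11:69965367-69965395, plus strand, between annotated exons of Cldn7 and before its second start, with the palindrome at -38 in capitals.
Cldn2: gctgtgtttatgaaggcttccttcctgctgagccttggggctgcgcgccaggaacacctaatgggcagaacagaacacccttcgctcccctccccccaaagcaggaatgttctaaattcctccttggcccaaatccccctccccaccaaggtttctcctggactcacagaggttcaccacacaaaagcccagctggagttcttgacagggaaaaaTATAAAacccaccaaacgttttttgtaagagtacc
Cldn4: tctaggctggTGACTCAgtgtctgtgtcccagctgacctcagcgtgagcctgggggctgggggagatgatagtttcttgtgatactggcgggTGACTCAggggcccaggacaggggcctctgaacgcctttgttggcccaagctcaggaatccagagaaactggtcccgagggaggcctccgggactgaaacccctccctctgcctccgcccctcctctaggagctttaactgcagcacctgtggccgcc
Cldn7: gtgagtgtcccttcagTGACGTCAggtca

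The TATA box was in 1 of 11 claudin windows, that of Cldn2, and in 12.37% of all windows. AP-1 matches were in 1 claudin window, that of Cldn4, and in 6.75% of all windows. The core TGACG was in 3 claudin windows and in 17.77% of all: beside the Cldn7 palindrome it lay at -91 in Cldn3 and at -68 and -54 before the upstream start of Cldn18. A match of letters is a description of the window and not a measured binding site.

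Cldn18 encodes the claudin most abundant in gastric epithelium, where it forms part of the barrier to acid. The gene lies on chromosome 9, 99689461 to 99717267, minus strand (ENSMUSG00000032473; coordinates as in the count table, which match GRCm38). Controls measured 1050, 1076, 775.2 and 877.9 CPM, and mutants 1301, 179.7, 869.8 and 1098. Mutants 1, 3 and 4 lay within or above the control range, and mutant 2 lay below every control. The log2 fold change was -0.13 (SE 0.50, adjusted p = 0.8713), and 0.21 without mutant 2 (SE 0.18, adjusted p = 0.3993). Cldn18 was not called under any of 20 other settings, whose log2 fold changes ran from -0.44 to 0.55. Its annotated start sites, one of which is used in stomach and another in lung, are not separated by counts per gene.

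Set against epithelial genes, Cldn18 gave different pictures with different partners. Per 100 reads of Cdh1, which encodes the adherens junction protein E-cadherin, controls had 152.8, 146, 128.4 and 119.5 Cldn18 reads and mutants 141.6, 83.78, 103.2 and 121.4, with overlap. Per 100 reads of Epcam, an epithelial adhesion gene, controls had 594.4, 628.4, 475.7 and 531.3 and mutants 378.5, 37.59, 258 and 273.4. All mutants lay below all controls in the ratio to Epcam, a gene that itself rose.

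Cldn2 encodes a claudin that forms a channel for small cations and water in leaky epithelia such as the crypts of the intestine and the proximal tubule of the kidney. It lies on chromosome X, 139800828 to 139811386, plus strand (ENSMUSG00000047230). Raw reads were 5, 6, 12 and 3 in controls and 924, 12338, 965 and 3637 in mutants. In CPM these are 0.314, 0.3953, 0.766 and 0.1795 against 30.87, 504.5, 41.61 and 155.9. The control values are a few reads each, at 0.414 ± 0.251 CPM (SD, n = 4), and the mutants differed widely among themselves at 183 ± 222 CPM. Cldn2 rose by 8.78 on the log2 scale (SE 1.22, adjusted p = 0.003093). Without mutant 2, the highest library, the mutant mean was 76.1 ± 69.3 CPM (n = 3), and the gene rose by 7.51 (SE 0.90, adjusted p = 0.001559). It was called under all 20 other settings, with log2 fold changes from 4.81, on the scale of log2 FPKM with a pseudocount, to 9.58.

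The groups also stood apart when Cldn2 was set against an epithelial gene. Per 100 Cdh1 reads, Cldn2 had 0.04567, 0.05365, 0.1268 and 0.02443 reads in controls and 3.358, 235.2, 4.937 and 17.23 in mutants. All mutants were above all controls, and in mutant 2 Cldn2 had more reads than Cdh1. The ratio to Epcam likewise did not overlap between the groups.

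Cldn7 encodes a claudin found along the sides of epithelial cells as well as at their tight junctions, where it associates with EpCAM. The gene spans 69964779 to 69967885 of chromosome 11, plus strand (ENSMUSG00000018569), and its palindrome-bearing stretch is printed above. Controls measured 2.888, 3.294, 3.319 and 3.291 CPM, and mutants 15.77, 80.43, 10.69 and 18. The control values were close together, and the lowest mutant was above the highest control. Cldn7 rose by 3.28 (SE 0.66, adjusted p = 0.01228), and without mutant 2 by 2.21 (SE 0.21, adjusted p = 3.355e-05), from 3.2 ± 0.207 CPM in controls (n = 4) to 14.8 ± 3.74 in the other mutants (n = 3). The call held under all 20 other settings.

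Cldn4 encodes a barrier claudin of many simple epithelia and a receptor of Clostridium perfringens enterotoxin. Its position is chromosome 5, 134945119 to 134946934, minus strand (ENSMUSG00000047501). Its reads were 5, 7, 15 and 5 in controls and 121, 662, 172 and 230 in mutants. That is 0.314, 0.4612, 0.9575 and 0.2992 CPM against 4.042, 27.07, 7.416 and 9.857. The groups did not overlap and mutant 2 was again the highest. Cldn4 rose by 4.56 (SE 0.72, adjusted p = 0.004943), and by 3.79 without mutant 2 (SE 0.44, adjusted p = 0.0001023). It was called under all 20 other settings.

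Cldn3, another barrier claudin and enterotoxin receptor, is the neighbour of Cldn4, at 134986214 to 134987472 on the plus strand (ENSMUSG00000070473), 39279 bases away. Controls measured 2.888, 2.24, 1.723 and 1.675 CPM, and mutants 1.971, 14.11, 4.398 and 3.428. Mutants 2, 3 and 4 lay above all controls and mutant 1 within their range. The log2 fold change was 1.48 (SE 0.60, adjusted p = 0.1132), and 0.61 without mutant 2 (SE 0.34, adjusted p = 0.1888). DESeq2 called Cldn3 higher (adjusted p = 0.0482), as did edgeR with column totals as library sizes (log2 fold change 2.2, adjusted p = 0.01542). Within each library, Cldn4 had 10.87, 20.59, 55.56 and 17.86 reads per 100 Cldn3 reads in controls and 205.1, 191.9, 168.6 and 287.5 in mutants. In every control Cldn3 had more reads than its neighbour, and in every mutant fewer.

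Cldn23, a claudin of differentiated intestinal epithelium, lies on chromosome 8, 35824712 to 35826559, minus strand (ENSMUSG00000055976). Controls measured 0.3767, 1.647, 2.489 and 2.633 CPM, and mutants 10.82, 5.111, 5.045 and 7.5. It was the one riser in which mutant 2 was not the highest library. Cldn23 rose by 1.99 (SE 0.55, adjusted p = 0.03746), and by 2.12 without mutant 2 (SE 0.50, adjusted p = 0.009444). The call held under 12 of 20 other settings, with the direction kept in all 20. It was lost without control 2 (adjusted p = 0.09782), control 3 (0.07128), control 4 (0.06034), mutant 1 (0.0794) or mutant 4 (0.08052), without control 3 and mutant 3 together (0.08875), and with pan-epithelial genes as the scale (0.08693). Fitted with replicate number as a block, its adjusted p was 0.114. Per 100 Epcam reads its groups overlapped, while per 100 Cdh1 reads they did not.

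Cldn8, a barrier claudin known from the distal nephron and the colon, was the member that fell. It lies on chromosome 16, 88560828 to 88563183, minus strand (ENSMUSG00000050520). Controls measured 7.912, 8.96, 13.15 and 12.15 CPM, and mutants 1.871, 0.08178, 2.328 and 2.057. Every mutant lay below every control, and mutant 2 had only 2 reads. Cldn8 fell by 2.73 (SE 0.72, adjusted p = 0.03173), and without mutant 2 by 2.34 (SE 0.24, adjusted p = 5.716e-05). Ratios to Cdh1 and to Epcam were likewise lower in every mutant than in any control. The call held under 11 of 20 other settings, and the direction in all 20. It was lost without control 1 (adjusted p = 0.06763), control 2 (0.06713), control 3 (0.08302), control 4 (0.07376), mutant 1 (0.06237) or mutant 4 (0.06943), without control 3 and mutant 3 together (0.1062), with no filter on low counts (0.05139) and with replicate number as a block (0.06036).

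**Figure D2:**
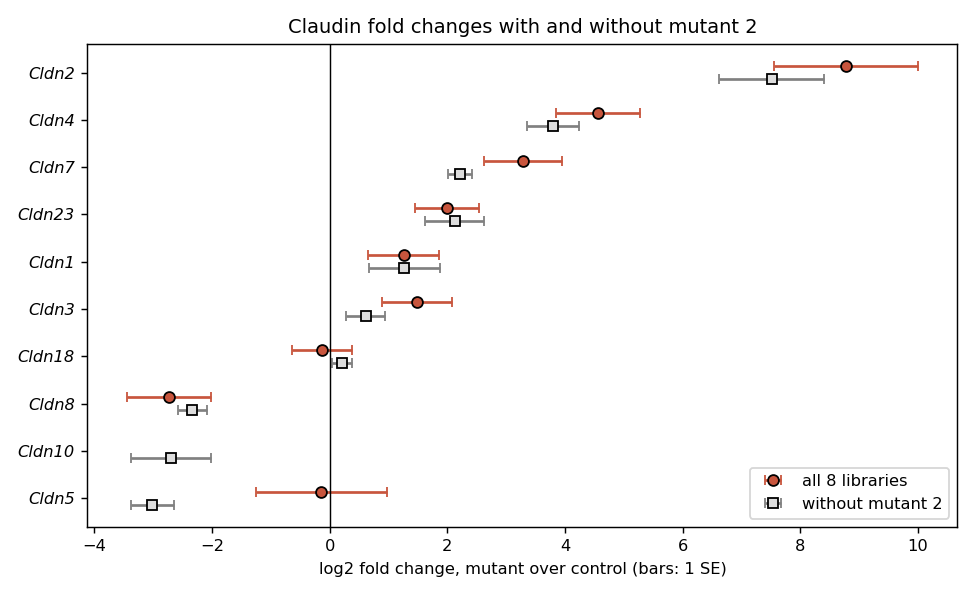
Log2 fold change of each claudin, mutant over control, with bars of 1 SE, fitted on all 8 libraries (circles) and without mutant 2 (squares); Cldn10 was tested only without mutant 2. Cldn2, Cldn4, Cldn7 and Cldn23 lie to the right of 0 and Cldn8 to the left in both fits, whereas Cldn5 lies at -0.14 with mutant 2 and at -3.02 without it.

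Cldn5 encodes the main claudin of endothelial tight junctions, in particular those of the blood-brain barrier. It lies on chromosome 16, 18776847 to 18778262, plus strand (ENSMUSG00000041378). Controls measured 5.463, 3.492, 5.362 and 3.111 CPM, and mutants 0.3674, 14.19, 0.6036 and 0.6428. Mutants 1, 3 and 4 lay below every control and mutant 2 above every control. Over all libraries the log2 fold change was -0.14 (SE 1.11, adjusted p = 0.9364). Without mutant 2 Cldn5 fell by 3.02 (SE 0.36, adjusted p = 0.0001313). It was also called lower with limma-voom quality weights, which weight libraries by how well they follow their group (-2.80, adjusted p = 0.0007505).

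Endothelial markers moved with Cldn5 in part. The 14 markers summed to 497.9 to 622.6 CPM in controls and to 305.5, 1644, 343.7 and 367.1 CPM in mutants 1 to 4. With edgeR and TMM scaling 0 of 14 were called over all libraries, and 0 had an unadjusted p below 0.05. DESeq2 called 0 of the 7 it gave an adjusted p for. Column totals as library sizes called 2 of 14 higher, where 9443 of all 15862 tested genes were called higher. With limma-voom 8 were called lower, where 35.7% of all genes were called in either direction. Without mutant 2, 10 of 14 were called lower, where 18.3% of all genes were, with a median log2 fold change of -0.64, beside -3.02 for Cldn5. Per 100 reads of Cdh5, the endothelial cadherin, Cldn5 had 21.53, 18.93, 17.61 and 10.99 reads in controls and 1.975, 5.188, 3.294 and 2.773 in mutants. On that ratio all 4 mutants, mutant 2 included, lay below all controls. Per 100 reads of Pecam1, an endothelial adhesion gene, the controls had 8.806, 6.625, 7.574 and 5.098 and the mutants 0.9151, 6.135, 1.468 and 1.554, where mutant 2 lay within the control range. How much of the Cldn5 difference endothelial content carries was not tested beyond these ratios.

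Cldn1 encodes a barrier claudin whose best-known role is in the epidermis. It lies on chromosome 16, 26356642 to 26371841, minus strand (ENSMUSG00000022512). Controls measured 0.5023, 0.5929, 1.404 and 1.017 CPM, and mutants 0.7349, 2.045, 4.355 and 1.328. The groups overlapped, and the highest library of each was replicate 3. The log2 fold change was 1.26 (SE 0.60, adjusted p = 0.1658). The same 2 libraries held the squamous markers: Krt5, a keratin of basal squamous cells, had 484 reads in control 3, 3776 in mutant 3 and at most 1 in the other 6. Without control 3 and mutant 3 the log2 fold change of Cldn1 was 0.94 (SE 0.53, adjusted p = 0.2842). Cldn1 was called higher in 1 of 17 other settings, edgeR with column totals as library sizes (log2 fold change 1.97, adjusted p = 0.01714). Cldn17, which no other library held a read of, had 2 reads in control 3 and 25 in mutant 3. The part of forestomach tissue in the Cldn1 values was not tested.

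**Figure D3:**
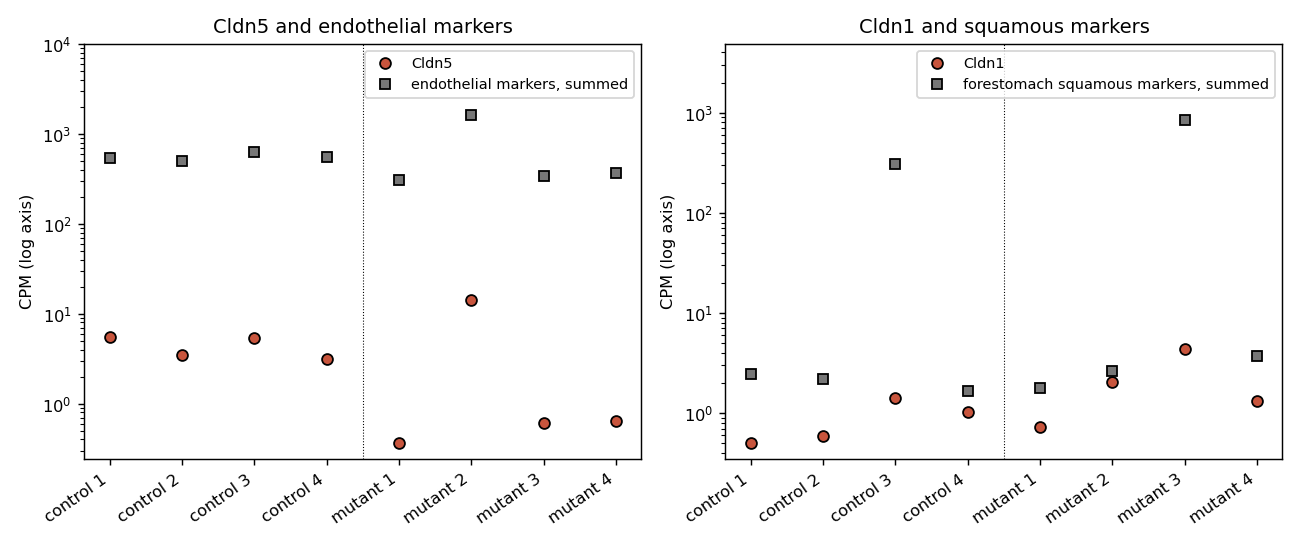
CPM (log axis) of Cldn5 with summed endothelial markers (left) and of Cldn1 with summed forestomach squamous markers (right) in each library; circles are the claudin, squares the marker sum, and the dotted line parts controls from mutants. Mutant 2 is the highest library for both Cldn5 and the endothelial sum, and mutant 3 for both Cldn1 and the squamous sum.

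Cldn10, whose splice forms make either cation or anion channels in kidney and other epithelia, was at the edge of detection. The gene is on chromosome 14, 118787908 to 118875489, plus strand (ENSMUSG00000022132). Its reads were 10, 12, 23 and 5 in controls and 4, 65, 2 and 3 in mutants. Mutant 2 was above every control, and the other mutants were below every control. It did not pass the filter over all 8 libraries, and with no filter its log2 fold change was -0.09 (SE 1.09, adjusted p = 0.964). Without mutant 2 it passed the filter and fell by 2.70 (SE 0.68, adjusted p = 0.009124), on 2 to 4 reads in each remaining mutant. With so few reads there, it passed only through its control reads, so the filter itself favoured a lower call. Counts per gene do not separate its forms.

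Per transcript length, Cldn18 stood far above the other members in controls, at 210 ± 31.4 FPKM (SD, n = 4). Cldn8 followed at 4.44 ± 1.06, then Cldn5 at 3.05 ± 0.872, Cldn3 at 1.68 ± 0.445, Cldn7 at 1.63 ± 0.104 and Cldn23 at 0.958 ± 0.556. The lowest were Cldn10 at 0.305 ± 0.19, Cldn4 at 0.278 ± 0.17, Cldn1 at 0.18 ± 0.0858 and Cldn2 at 0.124 ± 0.0755 FPKM. Cldn18 lay above Cldn8, and Cldn7 above Cldn23, without overlap between libraries, whereas the values of every other pair of neighbours in that order overlapped. Cldn2 was last in all 4 controls. In mutants the order of mean FPKM was Cldn18, Cldn2, Cldn7, Cldn4, Cldn3, Cldn23, Cldn5, Cldn8, Cldn1 and Cldn10. Across libraries, every pair of neighbours in that order overlapped. Within each mutant, Cldn2 lay above Cldn7, Cldn7 above Cldn4 and Cldn4 above Cldn3, while the other pairs did not keep their order in every mutant. Cldn18 was at 192 ± 109 FPKM there, Cldn2 at 54.7 ± 66.2, Cldn7 at 15.9 ± 16.8 and Cldn4 at 6.62 ± 5.61. Cldn2 was in second place in mutants 1, 3 and 4 and in first place in mutant 2. Cldn8 was second in controls, at 4.44 FPKM, and measured 0.668 ± 0.43 in mutants.

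The make-up of the claudin transcripts shifted accordingly. Cldn18 made up 92.08, 91.93, 87.52 and 89.81% of summed claudin FPKM in the 4 controls and 88.51, 14.3, 82.52 and 75.45% in the 4 mutants. Mutant 1 lay within the control range and the other 3 below it. Cldn2 made up 0.03689, 0.04526, 0.1159 and 0.02461% in controls and 2.813, 53.81, 5.29 and 14.35% in mutants, with every mutant above every control. The summed FPKM of all claudins except Cldn18 was 20.13, 20.93, 24.71 and 22.12 in controls and 37.68, 240.1, 41.19 and 79.43 in mutants. These sums did not overlap, and mutant 2 was the highest. Shares within a library are bound together, so a gain of Cldn2 lowers the share of Cldn18 even where its level is equal. Cldn8 made up 1.312 to 2.808% in controls and 0.01231 to 0.4178% in mutants.

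**Figure D4:**
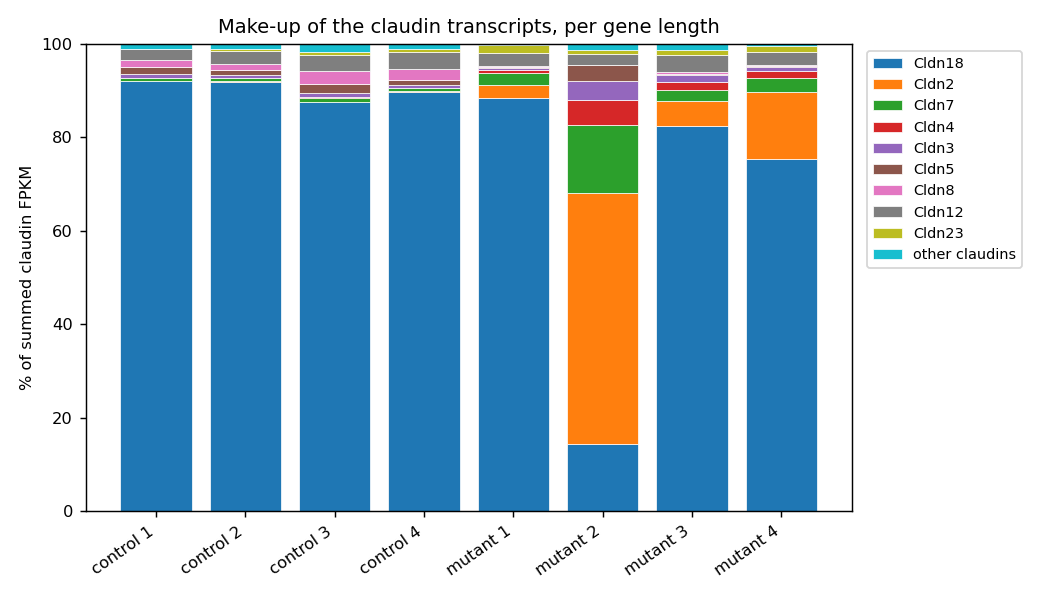
Share of summed claudin FPKM (%) taken by each claudin in each of the 8 libraries, as stacked bars from 0 to 100%. Cldn18 takes 87.52 to 92.08% in controls, and in mutant 2 Cldn2 takes 53.81% and Cldn18 14.3%.

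Of the 25 other claudin genes in the table, 16 had no read in any library and 9 had reads, of which Cldn12, Cldn15 and Cldn34c1 were tested. None of the 3 was called with edgeR and TMM scaling over all libraries, whereas column totals as library sizes called Cldn12 (0.91, adjusted p = 0.00184) and Cldn34c1 (1.34, adjusted p = 0.03267) higher. Cldn12, a broadly expressed claudin, was at 26.06 to 32.85 CPM in controls and 26.37 to 38.1 in mutants (log2 fold change 0.21, SE 0.14, adjusted p = 0.3108), and without mutant 2 it rose by 0.33 (adjusted p = 0.04277). Cldn15, a cation-channel claudin of the intestine, measured 3.265, 3.623, 3.958 and 4.368 CPM in controls and 0.8685, 3.394, 1.94 and 1.371 in mutants. Only mutant 2 reached the control range. Its log2 fold change was -1.01 (SE 0.41, adjusted p = 0.1154), and it fell by 1.45 without mutant 2 (SE 0.32, adjusted p = 0.004998). Cldn34c1 had a log2 fold change of 0.62 (SE 0.46, adjusted p = 0.3523). Cldnd1, a claudin-domain gene outside the family proper, fell by 0.34 (SE 0.09, adjusted p = 0.02916), and had the opposite sign, 0.36, with column totals as library sizes (adjusted p = 0.02394), a scaling that raised the median of all genes by 0.70. The lower call was kept under 8 of 20 other settings and lost under 11, among them leaving out any 1 control, mutant 1 or mutant 4 (adjusted p 0.05429 to 0.07176), the replicate block (adjusted p = 0.09984) and pan-epithelial scaling (-0.12, adjusted p = 0.8457).

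Among 42 tested tight junction genes other than claudins, 3 rose, 2 fell and 37 were not called, with a median log2 fold change of 0.11. That is 5 calls where 20.2% of all genes tested were called. Of 15 membrane partners, Epcam rose by 1.21 (SE 0.14, adjusted p = 0.001775), from 169 ± 6.18 to 390 ± 65.3 CPM, and Jam2, a junctional adhesion molecule strong in endothelium, fell by 1.35 (SE 0.16, adjusted p = 0.001928), from 20.5 ± 2.71 to 8.05 ± 1.24 CPM (SD, n = 4 each). Ocln, which encodes occludin, a partner of claudins in the strands, had a log2 fold change of -0.15 (SE 0.35, adjusted p = 0.7877). Of 27 plaque and polarity genes, Llgl1, a basolateral polarity gene, rose by 0.65 (SE 0.11, adjusted p = 0.007442). Tjp1, which encodes the claudin-binding scaffold ZO-1, rose by 0.53 (SE 0.15, adjusted p = 0.04093), and Pard6a, a partner of the apical polarity kinase, fell by 1.10 (SE 0.28, adjusted p = 0.02787). The groups overlapped for Tjp1, with control 4 at 92.32 CPM and mutant 3 at 89.98. Without mutant 2, 11 of the 42 were called higher and 8 lower, where 15.2% and 18.3% of all tested genes were. Cxadr, an adhesion receptor of the tight junction, was among those called higher (1.22, adjusted p = 9.708e-05).

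For the other junctions, 4 of 12 adherens junction genes rose with edgeR and TMM scaling, where 9.39% of all genes did. None fell in that fit (0 called, 1 lower at an unadjusted p below 0.05), DESeq2 called 0 lower and limma-voom 1. The smallest p was that of Nectin1, an adhesion molecule that rose by 1.00 (SE 0.16, adjusted p = 0.005353). Cdh1 had a log2 fold change of 0.06 (SE 0.40, adjusted p = 0.9266). Of 9 tested desmosome genes 0 were called and 0 had an unadjusted p below 0.05 in the same fit, and DESeq2 (8 with an adjusted p) and limma-voom called 0. Column totals as library sizes (64.1% of all genes called) and the replicate block (11.5%) each called 1 desmosome gene higher. Without mutant 2 (33.5%) 1 of 10 was called higher, Dsc2, and without mutant 3 1 of 9 was called lower. Of 6 tested gap junction genes 2 rose, Gja1 by 1.24 (SE 0.30, adjusted p = 0.02448) and Gja5, a connexin of arteries and heart, by 2.99 (SE 0.85, adjusted p = 0.04164). Mutant 2 had 23.92 CPM of Gja5 and the other mutants 2.614 to 3.14, and without mutant 2 the rise was 1.51 (SE 0.35, adjusted p = 0.007044). The 6 higher calls over these 3 lists became 0 with pan-epithelial scaling and 1 to 10 with single libraries left out, and the 0 lower calls became 0 to 3.

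**Figure D5:**
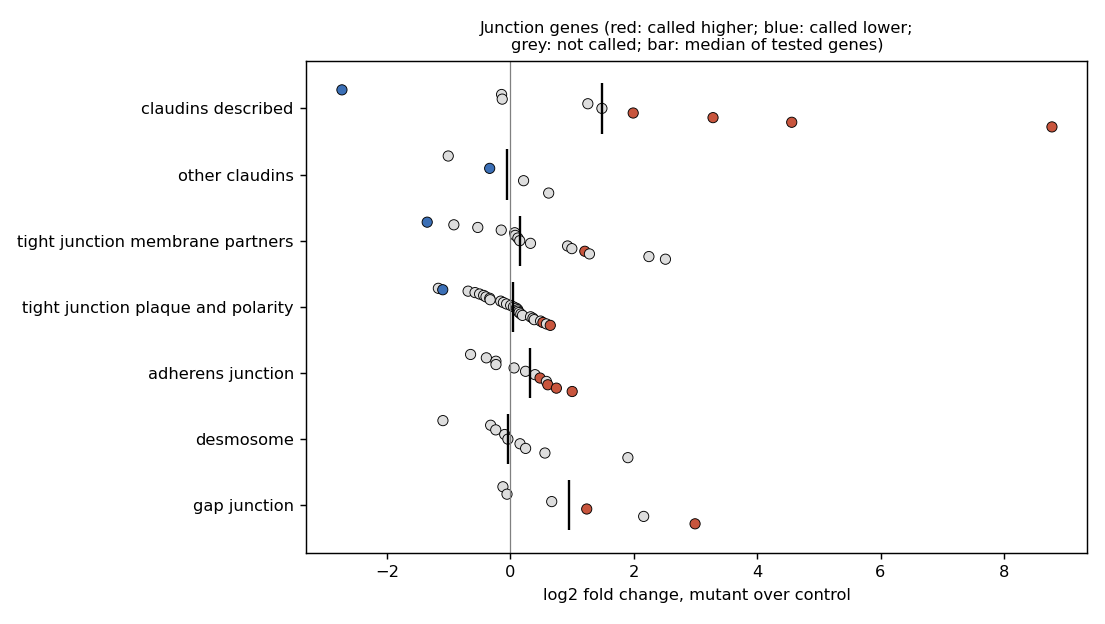
Log2 fold change, mutant over control, of each tested gene in the claudin and other junction lists; points are genes (red called higher, blue called lower, grey not called) and bars are list medians. The described claudins have a median of 1.48 and reach 8.78, and the tight junction membrane partners have a median of 0.15.

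Across the 8 libraries, the genes whose pattern was most like that of each claudin were found by the root mean square difference of centred log2 CPM, over 11060 genes with a mean of at least 5 CPM. These differences describe 8 libraries that share mutant 2 as an extreme. For Cldn2 the nearest were Cftr (0.72), S100a9 (0.80) and Cxcl5 (0.91), and for Cldn7 they were Cd44 (0.16), Cxcl14 (0.23) and Themis2 (0.28). Nearest to Cldn4 were Il1rn (0.48), C4b (0.59) and Adamts4 (0.60). Cldn18 was most like Sdcbp2 (0.12), Styk1 (0.15) and the simple epithelial keratin gene Krt8 (0.16). The pattern of Cldn8 lay nearest to Fa2h (0.28), Lpl (0.30) and Cyp2s1 (0.35). Cldn5 was nearest to Stmn2 (0.34), Kcnma1 (0.36) and Fibin (0.39), none of which is in the endothelial list. Cldn1 was nearest to Sbsn (0.49), a gene of squamous epithelia, then to Ppic (0.556) and Grin2d (0.562). Sbsn measured 9.702 CPM in control 3 and 11.86 in mutant 3. It also measured 9.568 CPM in mutant 2, where squamous markers summed to 2.658.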

How the data were processed

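Per the labels' protocols, corpus tissue of 8 mice went into RNAlater, RNA was taken up in Trizol, and polyA libraries were built with the NEBNext Ultra RNA kit. The authors deposited raw read counts and, in a second table, FPKM. The submitters' processing notes list STAR 2.5, featureCounts, fastp and CASAVA and give no roles. The sources used here give neither genome build nor strand setting, so reads of antisense partners cannot be told apart; the genes overlapping Cldn3, Cldn10 and Cldn18 had at most 1 read in any library. Columns were matched to samples by name, and one control column, SCI, was read as SC1. Replicates are separate mice per the series' design text. Library pairs differed by more than sampling noise (chi-square per degree of freedom at least 15.44), so each counted as 1 replicate.

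Genes passing filterByExpr were scaled with TMM. Mutants were compared with controls by the robust quasi-likelihood test of edgeR 4.0.16 in R 4.3.3, and p-values were adjusted over all tested genes by Benjamini-Hochberg (threshold 0.05). Adjusted p-values come from edgeR except where another tool is given. Where DESeq2 gave no adjusted p (Cldn5), the gene was not counted. CPM are counts over TMM library sizes. Library sizes implied by the FPKM were 1.004 to 1.013 times the TMM sizes. Alternatives used DESeq2 1.42.0, limma 3.58.1 (voom on counts, and log2 of FPKM plus 1 or 0.1), other scalings and filters, a replicate block, and libraries left out. The test was tried on simulated data first.

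The members and lists were chosen with earlier results of these data known. Named were all members, every other tested claudin, and in each junction list the called gene with the smallest p in each direction plus up to 2 more; Ocln, Cdh1, Cxadr, Cldn17 and genes used as denominators or markers were added after their values were seen. For likeness, the 3 nearest genes were taken per member, with predicted genes and claudins left out. A listed symbol on several rows (Igsf5) was left out. Tight junction, adherens, desmosome and gap junction lists and 11 marker lists were used. Promoters are from RefSeq.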

Additional observations from a re-analysis of the deposited data

Results flagged for a closer look

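CPM of the 10 described claudins, Cldn12, Cldn15, Cldn34c1 and Cldnd1 gave 28 groups of 4 libraries. Of these, 5 held a library whose gap to the nearest other exceeded the share of the group's range set by Dixon's 95% critical value. Chance gives such a gap in about 1 in 20 independent groups of normal values, but these groups share their libraries. Mutant 2 was the library set apart in 4 of the 5. It measured 14.19 CPM for Cldn5, where the other mutants lay between 0.3674 and 0.6428. For Cldn7 it measured 80.43 CPM against 10.69 to 18. For Cldn10 it measured 2.658 CPM against 0.08623 to 0.1336. For Cldn12 it was the lowest mutant, at 26.37 CPM against 36.3 to 38.1. The remaining one was control 1 for Cldn7, at 2.888 CPM, below the 3.291 to 3.319 of the other controls, a gap that is small beside the difference from the mutants.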

How the results depend on the processing

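Cldn2, Cldn4 and Cldn7 kept their direction and call under all 20 alternatives, and Cldn18 was not called under any. The 4 claudins that rose were 2 at an adjusted p below 0.01 and 3 to 4 with single libraries left out. The 1 that fell was 2 with limma-voom and 0 to 3 with single libraries left out. It was 0 without control 3 and mutant 3 and with no low-count filter (1 lower at an unadjusted p below 0.05 in each) and 0 at an adjusted p below 0.01. DESeq2 called 5 claudins higher and 1 lower. Column totals as library sizes called 6 claudins higher and 1 lower, and scaling on pan-epithelial genes 3 and 1; Cldnd1 reversed to 0.36 with column totals.

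The 3 tight junction genes that rose were 5 with DESeq2, 23 with column totals, 11 with limma-voom, 0 with pan-epithelial scaling (6 at an unadjusted p below 0.05) and 2 to 11 with single libraries left out. Lower calls among the tight junction genes, 2 with edgeR and TMM scaling, numbered 4, 1, 8 and 1 in the same settings. The 1 with pan-epithelial scaling was Prkcz, which is not among those 2. Lower calls numbered 1 without control 3 and mutant 3, 1 at an adjusted p below 0.01, and 1 to 8 with single libraries left out.

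Over all genes, 3208 calls (1489 higher, 1719 lower) became 10165 with column totals (9443 higher, 722 lower), which moved the median log2 fold change by 0.70, and 1057 with pan-epithelial scaling (400 higher, 657 lower), which moved it by 0.23. They became 1410 without control 3 and mutant 3, 5668 with limma-voom, 1047 at an adjusted p below 0.01, and 1717 to 5400 with single libraries left out, the highest without mutant 2. Apart from scaling and libraries left out, the cause was not tested.

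Libraries share replicate numbers across groups, and the deviations of same-numbered libraries correlated at 0.0457, -0.0618, 0.0688 and 0.000648. Correlations over all genes cannot exclude a pairing that touches few genes, so whether the numbers pair the samples is not known. Squamous markers were high in both libraries numbered 3, at 307 CPM in control 3 and 837.3 in mutant 3. With replicate number as a block, 1824 genes were called, and of the claudins 3 higher and 0 lower (1 lower at an unadjusted p below 0.05). Depth limits Cldn1, Cldn2, Cldn4 and Cldn10, with 3 to 23 reads per control library, and Cldn23 in control 1, with 6.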
